A study of Mus musculus with 8 samples.

Results

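The genes described are 8 organic ion transporters of the Slc22 and Slc17 families, chosen by symbol: Slc22a5, Slc22a7, Slc22a23, Slc22a28, Slc22a30, Slc17a1, Slc17a2 and Slc17a3. They are 8 of 16794 genes listed and 8 of 31 listed genes with an Slc22 or Slc17 symbol, and all 8 passed the filter on low counts. They were chosen with the comparison of the 2 groups below in view, so their own differences are given as descriptions and no p-value is printed for them. RNA was measured in whole liver from 4 E4bp4-LKO mice, which lack E4bp4 in the liver per the labels, and from 4 WT mice. Both groups had been given a diet that induces non-alcoholic steatohepatitis (NASH diet) for 20 weeks, starting at 2 months of age. The E4bp4-LKO mice are numbered 143, 144, 145 and 179, and the WT mice 164, 165, 166 and 167. The labels used here name neither the Cre line of the knockout, nor the strain, nor whether both groups came from the same litters. Genetic background and loss of E4bp4 therefore cannot be told apart.

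Slc22 proteins are membrane carriers of organic cations, of zwitterions such as carnitine, or of organic anions such as urate and many drugs. In hepatocytes, members on the blood-facing membrane take up such compounds for metabolism or exchange them for other anions. Slc17 proteins were first described as sodium-phosphate cotransporters, and several of them are now known for moving urate, other organic anions, sialic acid or glutamate. Nfil3 encodes E4BP4, which represses transcription from D-box sites, the same sites at which the activators DBP, TEF and HLF bind.

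The genes fall into chromosomal clusters of close copies, which sets how well each copy can be measured. In the order of genes in RefSeq, Slc22a28 and Slc22a30 lie on chromosome 19 in a run of Slc22a26, Slc22a27, Slc22a28, Slc22a29 and Slc22a30. Slc17a2, Slc17a3, Slc17a1 and Slc17a4 stand side by side in that order on chromosome 13. Slc22a5 is next to Slc22a21 on chromosome 11, while Slc22a7 on chromosome 17 and Slc22a23 on chromosome 13 have no neighbour of either family. The transcripts of Slc22a28 and Slc22a30 were 98.8% identical over 2004 aligned bases. Slc22a27 and Slc22a29 were 96.8% identical over 2088 bases, and Slc22a29 and Slc22a30 were 89.0% identical. The 4 clustered Slc17 genes were only 64.8% to 67.9% identical in pairs.

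The sequences before and around the start sites of Slc22a28 and Slc22a30 are shown because these copies both had higher levels in E4bp4-LKO livers, as described below, while their neighbours Slc22a27 and Slc22a29 had lower ones. Each runs from 250 bases before to 50 bases after the start, 5′ to 3′ on the minus strand, from RefSeq on GRCm38.p6, at chr19:8131933-8132232 for Slc22a28 and chr19:8405056-8405355 for Slc22a30. Capitals mark bases that differ between them or lie beyond the aligned stretch.
Slc22a28: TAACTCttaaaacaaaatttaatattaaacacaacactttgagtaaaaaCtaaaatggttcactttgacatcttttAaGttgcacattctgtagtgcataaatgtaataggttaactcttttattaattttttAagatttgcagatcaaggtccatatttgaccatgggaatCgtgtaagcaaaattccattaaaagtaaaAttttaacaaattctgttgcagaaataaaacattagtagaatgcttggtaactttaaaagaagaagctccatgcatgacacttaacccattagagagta
Slc22a30: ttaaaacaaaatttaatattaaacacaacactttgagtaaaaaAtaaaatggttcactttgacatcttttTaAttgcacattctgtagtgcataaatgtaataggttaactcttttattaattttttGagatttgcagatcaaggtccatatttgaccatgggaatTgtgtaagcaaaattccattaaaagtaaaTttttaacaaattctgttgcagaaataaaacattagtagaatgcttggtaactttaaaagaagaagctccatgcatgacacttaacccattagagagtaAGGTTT
Over 294 aligned bases the pair differed at 6 positions, an identity of 98.0%. The window of Slc22a29 aligned to that of Slc22a30 over 227 bases with 86.8% identity, and that of Slc22a27 aligned to it over 15 bases only. Whether the likeness of these windows bears on the levels was not tested.

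A start region of Slc17a1 is shown because it was the 1 window among those of the chosen genes that held the letters searched as a D-box. It lies at chr13:23868768-23869067 on the plus strand of GRCm38.p6, from RefSeq, with the match in capitals, and the match begins 55 bases before the start site.
Slc17a1: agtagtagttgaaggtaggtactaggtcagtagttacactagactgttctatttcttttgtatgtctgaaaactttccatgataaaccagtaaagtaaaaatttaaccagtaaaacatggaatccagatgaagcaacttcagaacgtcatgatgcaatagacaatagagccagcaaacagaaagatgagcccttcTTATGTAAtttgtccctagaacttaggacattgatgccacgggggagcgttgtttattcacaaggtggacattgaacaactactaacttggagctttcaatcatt
RefSeq windows were at hand for 7 of the 8 genes, and not for Slc22a7. The letters TTANGTAA, read on both strands, stood in 2.32% of 32851 promoter windows of this length. The letters TTCNNNGAA, to which STAT factors can bind, stood in 8.3% of them, and were found in the windows of Slc17a2, Slc17a3 and a second start of Slc17a1. The longer HNF1 palindrome and the DR1 repeat of nuclear receptors were found in none of the windows of the chosen genes, and in 0.00913% and 0.0396% of all windows. A match is a match of letters and not a measured binding site.

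The libraries held 23805540 to 32290265 expected counts, the read or fragment numbers that the authors' program estimated per gene. Levels below are in CPM, counts scaled to library size by TMM, where livers are compared, and in FPKM, which divides by transcript length, where genes are compared. Nfil3 itself measured 4.76 ± 1.64 CPM in E4bp4-LKO livers and 12.2 ± 3.20 CPM in WT livers (SD, n = 4 each; log2 fold change -1.35, SE 0.25, edgeR adjusted p = 0.0121). WT 164 and WT 165 stood apart from the other livers on the first principal component, with scores of 49.3 and 30.2, against 11.1 and 10.4 in WT 166 and 167 and -31.2 to -19.2 in E4bp4-LKO. They also had the highest TMM factors, 1.16 and 1.09. Transcripts of the Y-linked genes Ddx3y, Eif2s3y, Kdm5d and Uty were present in all 8 livers.

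Of the 8 genes, 6 were higher in E4bp4-LKO livers with an adjusted p under 0.05, and the same 6 had CPM ranges that did not overlap between the groups. The comparison chose the genes, so nothing is read from these counts, and the number called was 3 without WT 164 and 165. Over all genes tested, 4.37% were called higher and 6.48% lower (10.9% in all), and 8.8% had non-overlapping ranges with E4bp4-LKO above and 9.68% with E4bp4-LKO below. The median log2 fold change of the 8 genes was 0.64, against 0.01 over the 13242 genes tested. Scaling by library totals instead of TMM moved the median over all genes to -0.15 and that of the 8 genes to 0.49, and raised the share of called genes that were lower to 85.1%, against 59.7% with TMM. In whole liver, fewer cells of a type and less RNA per cell cannot be told apart.

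**Figure D1:**
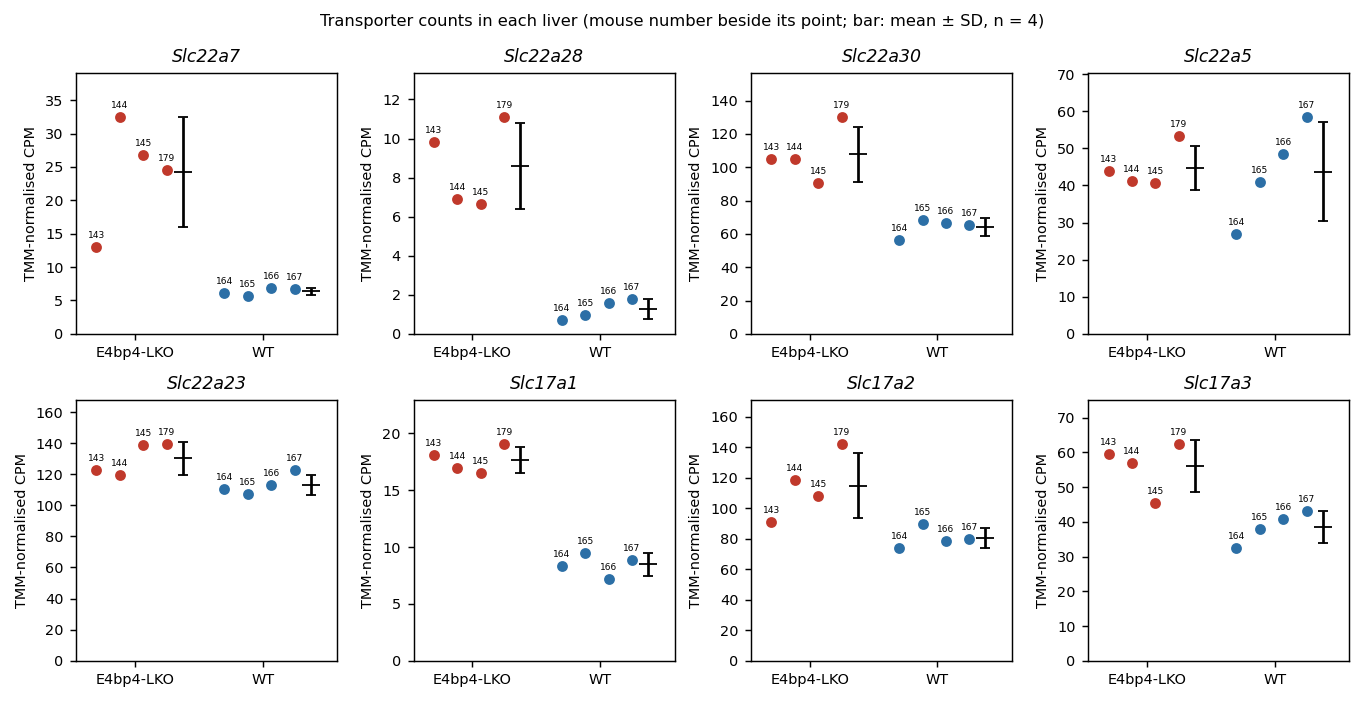
TMM-normalised CPM of the 8 transporter genes in each liver, E4bp4-LKO on the left and WT on the right of each panel. Points are single livers with their mouse number, and bars give the mean ± SD of 4 livers. The points of the groups are apart for Slc22a7, Slc22a28, Slc22a30, Slc17a1, Slc17a2 and Slc17a3 and overlap for Slc22a5 and Slc22a23.

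Slc22a7 encodes the organic anion transporter OAT2, a carrier of the blood-facing hepatocyte membrane. It measured 12.9, 32.5, 26.8 and 24.6 CPM in E4bp4-LKO 143, 144, 145 and 179, against 6.13, 5.64, 6.87 and 6.75 CPM in WT 164, 165, 166 and 167. E4bp4-LKO 143 was the lowest of its group and still above every WT liver. The E4bp4-LKO livers also spread more widely, with a mean of 24.2 ± 8.22 CPM, against 6.35 ± 0.572 CPM in WT livers (SD, n = 4 each). The log2 fold change was 1.93 (SE 0.24), a 3.82-fold higher level, and it was 1.84 without WT 164 and 165. No 50-base stretch of its transcript occurs in a transcript of another gene, and its counts were whole numbers in every library.

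Slc22a28 had the largest fold change of the 8 genes and the lowest level. The authors' deposited table lists it for urate transport and for sodium-independent organic anion transport. It measured 9.80, 6.91, 6.64 and 11.1 CPM in E4bp4-LKO 143, 144, 145 and 179, against 0.703, 0.955, 1.56 and 1.80 CPM in WT 164, 165, 166 and 167. The lowest E4bp4-LKO liver had over 3 times the highest WT level, and WT 164 and 165 were the lowest of all. This is a log2 fold change of 2.80 (SE 0.29), or 6.95-fold, and of 2.36 without WT 164 and 165. The counts behind these levels were 180.5 to 264.7 in E4bp4-LKO libraries and 24.3 to 51.5 in WT libraries, above the detection floor of 3 counts.

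Slc22a30, the near-identical copy, was the most abundant of the 8 genes in both groups. It measured 104.8, 105.1, 90.5 and 130.4 CPM in E4bp4-LKO 143, 144, 145 and 179, against 56.1, 68.4, 66.4 and 65.4 CPM in WT 164, 165, 166 and 167. The groups did not overlap, and WT 164 was the lowest liver. On the log2 scale they differed by 0.75 (SE 0.11), a 1.68-fold higher level, and by 0.71 without WT 164 and 165.

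Reads of the chromosome 19 copies can be split wrongly between genes. Of the 50-base windows of the Slc22a28 transcript, 53.3% also occur in Slc22a30, and 47.2% of those of Slc22a30 occur in Slc22a28. Both genes had fractional counts in 8 of 8 libraries, so the level of each is uncertain. Their sum does not depend on a split within the pair, and it ran from 97.1 to 141.5 CPM in E4bp4-LKO livers and from 56.9 to 69.4 CPM in WT livers, without overlap. The FPKM ratio of Slc22a28 to Slc22a30 was 0.0792 ± 0.0123 in E4bp4-LKO livers and 0.0194 ± 0.00718 in WT livers (SD, n = 4 each). By the program's split, the share of Slc22a28 within the pair was higher in every E4bp4-LKO liver than in any WT liver. That share rests on the split itself. Most of the sum was Slc22a30, at a mean of 107.7 CPM in E4bp4-LKO livers and 64.1 CPM in WT livers. The sum therefore does not settle the level of Slc22a28.

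Slc22a27 and Slc22a29, of the same run, were lower in E4bp4-LKO livers. Slc22a27 measured 4.32 ± 2.43 CPM in E4bp4-LKO livers and 16.2 ± 3.97 CPM in WT livers (SD, n = 4 each; log2 fold change -1.93, SE 0.33, edgeR adjusted p = 0.00996). Slc22a29 measured 1.247 ± 0.588 CPM in E4bp4-LKO livers and 3.71 ± 0.914 CPM in WT livers (log2 fold change -1.60, SE 0.30, edgeR adjusted p = 0.0104). Slc22a26 averaged 1.26 ± 0.252 CPM in E4bp4-LKO livers and 0.857 ± 0.795 CPM in WT livers and did not pass (edgeR adjusted p = 0.516), though it did without WT 167. By the program's split of reads, the genes alternated along the chromosome from Slc22a27 (lower) to Slc22a28 (higher), Slc22a29 (lower) and Slc22a30 (higher). That order rests on the split, since counts were fractional in 8 libraries for Slc22a27 and in 7 for Slc22a29. Of the transcript windows of each of these genes, 30.5% also occur in other genes. Slc22a29 had only 20.8 to 47.2 counts in E4bp4-LKO libraries. Whether its lower level is separate from that of Slc22a27 was not tested. Slc22a27 was not called without WT 164 and 165 (edgeR adjusted p = 0.0897), although its estimate was as large there.

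Sums within the run show how far the opposed directions reach. Slc22a27 and Slc22a29 together, which share 25.8% of the Slc22a27 windows, summed to 3.36 to 10.01 CPM in E4bp4-LKO livers and 15.5 to 26.1 CPM in WT livers. Slc22a27 and Slc22a28 together overlapped between the groups, at 10.01 to 19.03 CPM in E4bp4-LKO livers and 13.9 to 23.5 CPM in WT livers. The FPKM ratio of Slc22a28 to Slc22a27 was 2.49 ± 1.12 in E4bp4-LKO livers and 0.0858 ± 0.0373 in WT livers. All 5 genes of the run summed to 103.3 to 152.6 CPM in E4bp4-LKO livers and 74.5 to 95.3 CPM in WT livers, most of it from Slc22a30.

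**Figure D2:**
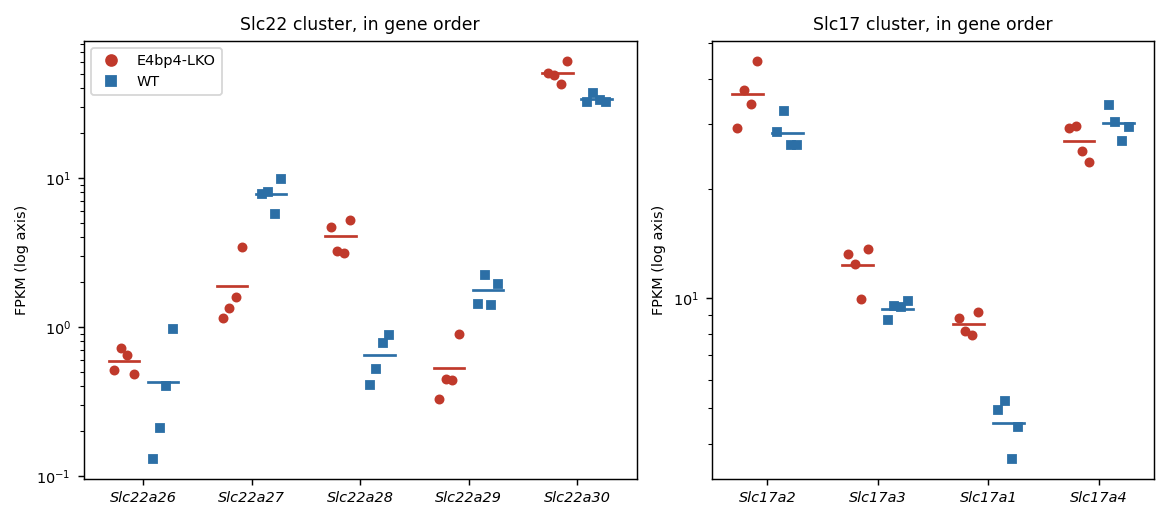
FPKM on a log axis for the chromosome 19 Slc22 run (left) and the chromosome 13 Slc17 cluster (right), genes in chromosomal order. Circles are E4bp4-LKO livers, squares WT livers and lines group means. Slc22a28 and Slc22a30 lie higher and Slc22a27 and Slc22a29 lower in E4bp4-LKO livers, and of the Slc17 genes Slc17a1 shows the widest gap while Slc17a2 and Slc17a4 overlap.

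In the chromosome 13 cluster, 3 of 4 genes had higher levels in E4bp4-LKO livers and the fourth, Slc17a4, did not pass the test. The transcripts of these genes shared no 50-base window with any other gene, and the counts of the chosen 3 were whole numbers in every library. Slc17a1 encodes NPT1, known in humans as a sodium-phosphate cotransporter that also exports urate. It measured 18.1, 16.9, 16.5 and 19.1 CPM in E4bp4-LKO 143, 144, 145 and 179, against 8.35, 9.49, 7.15 and 8.88 CPM in WT 164, 165, 166 and 167. Both groups were tight and well apart. The log2 fold change of 1.06 (SE 0.10), a 2.08-fold higher level, had one of the smallest errors of the 8 genes, and it was 1.14 without WT 164 and 165. The window of 1 of its listed starts, shown above, holds the D-box letters, while that of its second start does not. The window of Slc22a26, a relative that did not pass the test, holds them too. Which start of Slc17a1 the livers used was not tested.

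Slc17a2, which encodes the related carrier NPT3, measured 91.3, 118.3, 107.8 and 142.5 CPM in E4bp4-LKO 143, 144, 145 and 179, against 73.8, 89.9, 78.7 and 80.2 CPM in WT 164, 165, 166 and 167. E4bp4-LKO 143 lay just above WT 165, so the gap between the groups was narrow. The log2 fold change was 0.51 (SE 0.12), and 0.54 without WT 164 and 165. On the FPKM scale the groups overlapped, at 29.4 to 44.8 in E4bp4-LKO livers and 26.3 to 32.6 in WT livers.

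Slc17a3 encodes NPT4, known in humans as an exporter of urate and organic anions. It measured 59.4, 56.8, 45.4 and 62.5 CPM in E4bp4-LKO 143, 144, 145 and 179, against 32.5, 37.9, 40.9 and 43.1 CPM in WT 164, 165, 166 and 167. E4bp4-LKO 145 lay just above WT 167. Their difference was 0.54 on the log2 scale (SE 0.11), and 0.42 without WT 164 and 165. Slc17a4, in humans a carrier of organic anions, averaged 71.0 ± 7.39 CPM in E4bp4-LKO livers and 71.1 ± 3.12 CPM in WT livers (log2 fold change -0.00, SE 0.08, edgeR adjusted p = 0.992).

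The 3 Slc17 genes did not move by the same factor. The FPKM ratio of Slc17a1 to Slc17a2 was 0.240 ± 0.0431 in E4bp4-LKO livers and 0.160 ± 0.0155 in WT livers (SD, n = 4 each), without overlap. The ratio of Slc17a1 to Slc17a3 was 0.698 ± 0.0660 in E4bp4-LKO livers and 0.489 ± 0.0859 in WT livers, also without overlap. The ratio of Slc17a3 to Slc17a2 overlapped, at 0.346 ± 0.0726 in E4bp4-LKO livers and 0.333 ± 0.0399 in WT livers. Summed, the 3 genes reached 168.8 to 224.1 CPM in E4bp4-LKO livers and 114.7 to 137.3 CPM in WT livers.

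The deposited files also give a mean transcript length per gene, which moves with the mix of isoforms and was not used to choose the genes. Slc17a3 and Slc17a1, with 2 listed transcripts each, could be compared. For Slc17a3 it was 4264, 4267, 4255 and 4265 bases in E4bp4-LKO 143, 144, 145 and 179, against 4275, 4273, 4275 and 4273 bases in WT 164, 165, 166 and 167. Every E4bp4-LKO liver was shorter, by 10.9 bases on average, a shift that is small beside the length. The two-sided exact permutation test gave p = 0.0286, the smallest that 70 arrangements allow, and 0.0571 after Benjamini-Hochberg adjustment over the 2 genes. With 4 livers a group, 1 gene alone could not have gone below that adjusted value. An adjusted value under 0.05 would have needed both genes at the smallest p. Of 3770 genes with several transcripts, 1.35% were shorter and 1.72% longer without overlap in E4bp4-LKO livers. Slc17a1 measured 1962 ± 3.58 bases in E4bp4-LKO livers and 1961 ± 4.43 bases in WT livers (exact permutation p = 0.743, adjusted p = 0.743).

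Slc22a5 and Slc22a23 differed least. Slc22a5 encodes OCTN2, the sodium-dependent carnitine transporter. It measured 43.9, 41.1, 40.5 and 53.4 CPM in E4bp4-LKO 143, 144, 145 and 179, against 27.0, 41.0, 48.4 and 58.5 CPM in WT 164, 165, 166 and 167. The WT livers alone spanned the whole range, with WT 164 lowest and WT 167 highest. The log2 fold change was 0.03 (SE 0.21), and its sign turned with the livers used, at -0.25 without WT 164 and 165. Its counts were fractional in 8 of 8 libraries, and 27.0% of its 50-base windows occur in its neighbour Slc22a21, which measured 0.385 ± 0.0963 CPM in E4bp4-LKO livers and 0.349 ± 0.0658 CPM in WT livers.

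Slc22a23, for which no substrate is established, measured 122.9, 119.6, 139.1 and 139.7 CPM in E4bp4-LKO 143, 144, 145 and 179, against 110.3, 107.0, 112.8 and 122.5 CPM in WT 164, 165, 166 and 167. The groups touched only through WT 167, which lay above E4bp4-LKO 144. The estimate was 0.20 on the log2 scale (SE 0.08), 0.15 without WT 164 and 165, and 0.05 with library totals in place of TMM.

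**Figure D3:**
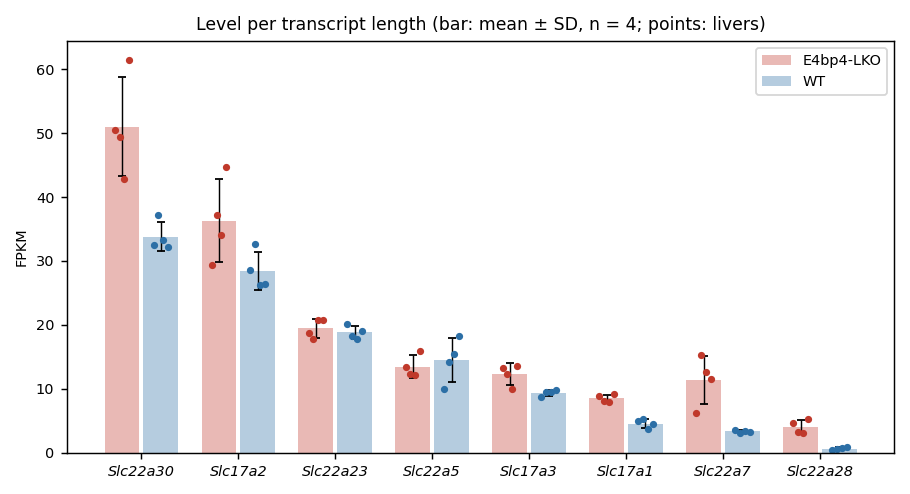
FPKM of the 8 genes, E4bp4-LKO bars left of WT bars, in the order of the WT means. Bars are means ± SD of 4 livers and points are livers. Slc22a30 and Slc17a2 are highest and Slc22a28 lowest in both groups, while Slc22a7 stands below Slc17a1 in WT livers and above it in E4bp4-LKO livers.

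Set per transcript length, the 8 genes ranked almost alike in both groups. In E4bp4-LKO livers Slc22a30 stood at 51.0 ± 7.70 FPKM and Slc17a2 at 36.3 ± 6.48 FPKM (SD, n = 4), whose ranges overlapped. Slc22a23 followed at 19.5 ± 1.51 FPKM, apart from its neighbours. Slc22a5 at 13.5 ± 1.77, Slc17a3 at 12.3 ± 1.65, Slc22a7 at 11.4 ± 3.78 and Slc17a1 at 8.53 ± 0.578 FPKM overlapped from each to the next, and Slc22a28 was lowest at 4.07 ± 1.04 FPKM. In WT livers Slc22a30 at 33.8 ± 2.28 and Slc17a2 at 28.4 ± 2.96 FPKM overlapped, as did Slc22a23 at 18.8 ± 1.02 and Slc22a5 at 14.5 ± 3.48 FPKM. Below them Slc17a3 at 9.38 ± 0.469, Slc17a1 at 4.57 ± 0.702, Slc22a7 at 3.33 ± 0.207 and Slc22a28 at 0.647 ± 0.219 FPKM were each apart from the next.

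The relatives give the rest of both families. Of 23 other listed Slc22 and Slc17 genes, 14 could be tested: 1 was higher (Slc17a8), 2 were lower (Slc22a27 and Slc22a29) and 11 did not pass, with a median log2 fold change of -0.03. The share over all genes tested was 4.37% higher and 6.48% lower. Counts as small as these are not read as a result about the relatives. Slc17a8 encodes VGLUT3, a vesicular glutamate transporter best known from neurons. It measured 34.5 ± 3.77 CPM in E4bp4-LKO livers and 16.1 ± 5.55 CPM in WT livers (SD, n = 4 each; log2 fold change 1.10, SE 0.23, edgeR adjusted p = 0.0190), and it did not pass without E4bp4-LKO 144 or without WT 165 (up to 0.0606).

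Among relatives that did not pass, Slc22a18 had a log2 fold change of 0.00, Slc22a3 (OCT3) of -0.21, the ergothioneine carrier gene Slc22a4 (OCTN1) of -0.10 and Slc22a15 of -0.06, with edgeR adjusted p between 0.317 and 0.985. Slc17a5, the lysosomal sialic acid exporter sialin, at 0.06 and Slc17a9, a vesicular nucleotide transporter, at -0.11 did not pass either (edgeR adjusted p = 0.700 and 0.628). The kidney transporters Slc22a6 (OAT1), Slc22a8 (OAT3) and Slc22a12 (URAT1) were among 9 relatives with too few counts to test.

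**Figure D4:**
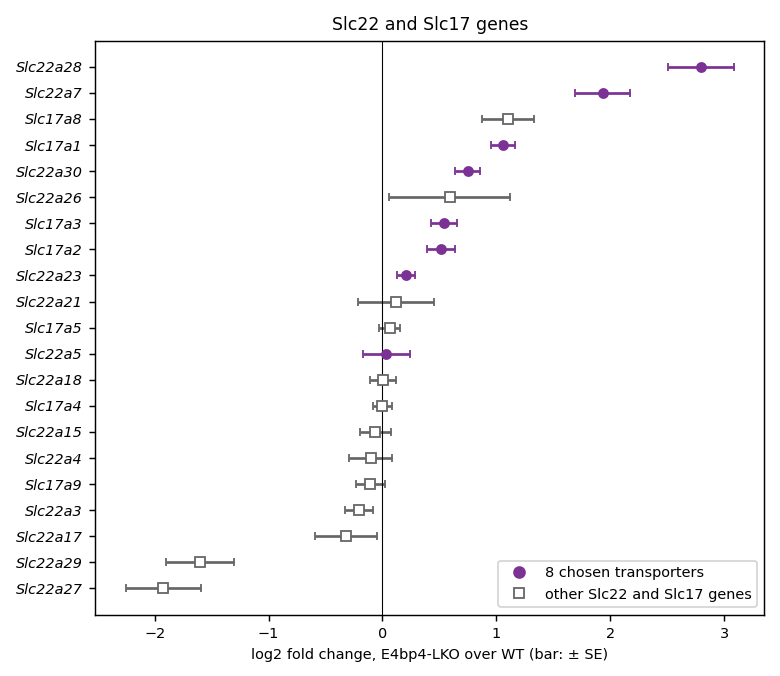
Log2 fold change, E4bp4-LKO over WT, of Slc22 and Slc17 genes that could be tested and are reported here, with bars of ± 1 SE. Filled circles are the 8 chosen genes and open squares their relatives. Slc22a28 and Slc22a7 stand at the upper end and Slc22a29 and Slc22a27 at the lower end.

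The authors' deposited annotation ties several of the 8 genes to the same functions. In the authors' deposited table, 3 of the 9 genes with the term urate transmembrane transporter activity were Slc17a3, Slc22a28 and Slc22a30. Of the 22 genes with the term for sodium-independent organic anion transport, 3 were Slc22a7, Slc22a28 and Slc22a30. Slc22a5 was 1 of 4 genes with the term for carnitine transport.

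Other genes of the same pathways were counted from lists that were also drawn up with earlier results of these data known. Over all genes tested, 4.37% were called higher and 6.48% lower, 10.9% in all. A single call among 10 or 13 genes, as below, is near that share and is not read as a result about the list. For urate, 1 of 10 tested genes was higher and 9 did not pass (median log2 fold change 0.21). The one that passed was Gda, guanine deaminase, at 62.9 ± 8.27 CPM in E4bp4-LKO livers and 43.6 ± 3.48 CPM in WT livers (log2 fold change 0.53, edgeR adjusted p = 0.0102, and 0.071 without WT 164 and 165). Abcg2, an exporter of urate, averaged 162.7 ± 28.5 CPM in E4bp4-LKO livers and 124.7 ± 12.5 CPM in WT livers and did not pass (edgeR adjusted p = 0.0715). DESeq2 called 3 of the 10 higher, adding Abcg2 (DESeq2 adjusted p = 0.029) and Urad (DESeq2 adjusted p = 0.0495). For carnitine synthesis and use, beside Slc22a5, 1 of 13 was lower and 12 did not pass (median 0.06). That gene was Cpt1b, the muscle-type carnitine palmitoyltransferase (log2 fold change -0.72, edgeR adjusted p = 0.0164, and 0.0505 without WT 165).

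Among 16 tested organic ion and drug transporters of other families, 3 were higher, 2 were lower and 11 did not pass (median 0.18). Slco1a1, a sodium-independent organic anion carrier of the same membrane as Slc22a7, had a log2 fold change of 4.01 (edgeR adjusted p = 0.00318), while its relative Slco1a4 had one of -1.22 (edgeR adjusted p = 0.0152). The other lower gene was the efflux pump gene Abcc4 (-0.54, edgeR adjusted p = 0.0248), which was named after its values were seen. Slco1a4 and Abcc4 both lost their call without E4bp4-LKO 144 and without WT 164 and 165 (Slco1a4 up to 0.0818), and Abcc4 also without E4bp4-LKO 145 or WT 165. DESeq2 called 5 of the 16 higher and 2 lower. The efflux pump genes Abcb1b (1.30, edgeR adjusted p = 0.00911) and Abcc6 (0.50, edgeR adjusted p = 0.0242) were higher, and Abcc6 was not called without E4bp4-LKO 144, E4bp4-LKO 145 or WT 165, or without WT 164 and 165 (up to 0.124). Of 13 scaffold proteins and nuclear regulators of such transporters, 1 was higher and 12 did not pass (median 0.18), while DESeq2 called 3 higher, adding Nr1h4 (DESeq2 adjusted p = 0.0224) and Nr1i3 (DESeq2 adjusted p = 0.0415). The one called by edgeR was Slc9a3r1, a PDZ scaffold (0.43, edgeR adjusted p = 0.0340), whose call was lost in 6 of 16 alternatives, without E4bp4-LKO 144, 145 or 179, WT 164, WT 165 or both of these WT livers (up to 0.173).

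Of the 4 D-box factors, Nfil3 was lower, Tef was higher (0.34, edgeR adjusted p = 0.0472, lost in 11 of 16 alternatives, among them leaving out any 1 mouse but E4bp4-LKO 143 or WT 167), and Dbp and Hlf did not pass (0.38 and 0.14, edgeR adjusted p = 0.204 and 0.390). Of 10 growth hormone and STAT5 genes, 2 were higher and 8 did not pass (median 0.55). These were the receptor gene Ghr (0.44, edgeR adjusted p = 0.0285) and Onecut1 (1.63, edgeR adjusted p = 0.0367), whose calls were lost in 5 and 10 of 16 alternatives. Neither was called without E4bp4-LKO 144, E4bp4-LKO 179, WT 165, or WT 164 and 165 together. Ghr was also lost without E4bp4-LKO 145, and Onecut1 without WT 164, 166 or 167. Of 18 genes known to be higher in male mouse liver, 13 were higher and 5 did not pass (median 1.23), and 6 were higher without WT 164 and 165. Of 18 known to be higher in female mouse liver, 6 were lower and 12 did not pass (median -0.57), and 3 were lower without WT 164 and 165. With those livers left out, 182 of all 13375 genes tested were higher and 205 were lower. Examples were Nudt7 (1.12, edgeR adjusted p = 0.000201) of the first list and Abcd2 (-1.02, edgeR adjusted p = 0.00102) of the second.

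Markers of cell types were summed per liver beside these levels. Their counts of calls stand beside 4.37% called higher and 6.48% called lower over all genes tested. A single call among 6 or 8 markers is not read as a result about the cell type. The 8 hepatocyte markers summed to 79400 to 98470 CPM in E4bp4-LKO livers and 61670 to 79140 CPM in WT livers, with 1 of 8 higher and 7 not passing. Most of this sum was Alb, at 53380 to 68150 CPM in E4bp4-LKO livers and 43210 to 55060 CPM in WT livers, with overlap. Of the 8 estimates 7 were positive, and that of Tat was negative (log2 fold change -0.35, edgeR adjusted p = 0.0918). The stellate cell markers, 3 of 8 of which were lower, summed to 465.7 to 640.0 CPM in E4bp4-LKO livers and 727.6 to 1330 CPM in WT livers. Most of this came from Dcn, Col1a1 and Col3a1. Acta2 averaged 7.69 CPM in E4bp4-LKO livers and 7.68 CPM in WT livers, and Reln 83.1 and 78.9 CPM. Of these 8 markers, 2 had a positive estimate. The cholangiocyte markers, 1 of 6 lower, summed to 79.6 to 105.7 CPM in E4bp4-LKO livers and 193.2 to 480.5 CPM in WT livers. Most of that sum was Spp1, at 69.4 to 93.5 CPM in E4bp4-LKO livers and 177.5 to 437.3 CPM in WT livers. The ranges of every other cholangiocyte marker overlapped between the groups, though 0 of the 6 tested had a positive estimate. The macrophage markers, 2 of 8 lower, summed to 418.1 to 631.5 CPM in E4bp4-LKO livers and 565.7 to 698.1 CPM in WT livers. The number of stellate markers called became 1 without E4bp4-LKO 144, E4bp4-LKO 179 or WT 165, and that of macrophage markers 1 without E4bp4-LKO 144, E4bp4-LKO 145 or WT 165. The number of hepatocyte markers called became 2 without E4bp4-LKO 143, and that of cholangiocyte markers 2 without WT 166 or WT 167. Without WT 164 and 165, edgeR called 0 stellate and 0 macrophage markers, with 4 and 2 lower at an unadjusted p under 0.05, and the median of the cholangiocyte markers was -0.29, against -1.22 with all livers. With all livers DESeq2 called 5 stellate, 3 cholangiocyte and 2 macrophage markers lower, and 1 macrophage marker higher, and of the hepatocyte markers 3 higher and 1 lower. Sums of endothelial markers (221.4 to 325.6 CPM in E4bp4-LKO, 218.3 to 260.8 CPM in WT) and of T and NK cell markers (5.81 to 8.02 CPM in E4bp4-LKO, 5.31 to 6.97 CPM in WT) overlapped between the groups. Markers of the kidney proximal tubule, where several of these carriers are also made, summed to 1.13 to 2.36 CPM in E4bp4-LKO livers and 0.62 to 1.73 CPM in WT livers, with Slc5a2, Umod and Kap in no file. The part of cell makeup in the levels of the 8 transporter genes was not tested.

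For each of the 8 genes, the genes with the most similar profile were found as those with the smallest root mean square difference of centred log2 CPM over the 8 livers. Since the groups differ, such a profile follows the group difference, and the likeness is a description. Slc22a28 was closest to Mup16, Elovl3 and Nat8, with differences of 0.215, 0.343 and 0.373. Slc22a7 was closest to the complement gene C8b (0.311), then Nnt (0.328) and Ppp1r1b (0.354). Nnt encodes the mitochondrial transhydrogenase that the C57BL/6J substrain is known to lack, and it measured 284.8 ± 22.04 CPM in E4bp4-LKO livers and 86.9 ± 3.66 CPM in WT livers. Genetic background, on which the labels are silent, was not tested as a part of this or of any transporter difference.

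Slc22a30 was closest to Akr1c19 (0.0807), Mme (0.119) and Amy1 (0.126). The nearest genes to Slc17a1 were Tiam2 (0.137), Wnt2 (0.171) and Dpy19l3 (0.188), and those to Slc17a2 were Lonrf3 (0.0751), Apob (0.0784) and Ptprd (0.0935). Slc17a3 lay nearest to the glutathione transferase gene Gsta3 (0.0704), then Mbl1 (0.0788) and Hspb6 (0.0824). None of the 8 genes was among the 3 nearest of another, though Slc17a2 and Slc17a3 are neighbours on the chromosome. Slc22a5 lay nearest to Bnip3 (0.0982), Cmbl (0.108) and Paqr7 (0.112), and Slc22a23 to Prpf6 (0.0420), Gtf2a2 (0.05001) and Trak1 (0.0535).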

How the data were processed

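RNA sequencing files of 8 livers were used, 1 per library. Reads were aligned with HISAT2, per the submitters' processing notes; for its version, the quantification program, genome build and annotation the entry is: not given in the sources used here. Per the labels' protocols, mRNA was enriched by oligo-dT or rRNA depletion; the strand setting is not stated. The deposited expected counts are estimated reads or fragments per gene, not normalized by the authors. The deposited FPKM values are the authors' and adjust for length and library size. The deposited mean transcript length is in bases. A gene absent from a file was set to 0 there; 29 entries without a symbol were joined to their gene and 1 was left out.

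Expected counts were rounded and fitted in R 4.3.3 with edgeR 4.0.16 (TMM, filterByExpr with minimum count 10 and total 15, robust glmQLFit, two-sided glmQLFTest, Benjamini-Hochberg over 13242 genes, threshold 0.05); limma 3.58.1 and DESeq2 1.42.0 served for alternatives. A detection floor of 3 counts corresponded to 0.0929 to 0.126 CPM; it covers counting error only. In each library 25.9% to 27.3% of entries were fractional. Nothing beyond the mouse numbers says how the replicate livers were obtained, so p-values weigh the group difference against the spread between these samples only.

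The 8 genes, the gene lists and the tests were chosen with earlier results of these data known. Genes named were the 8, Nfil3, other Slc22 and Slc17 genes at 1 FPKM or more or called, up to 4 genes of each list with the smallest p, and the 3 nearest profiles of each gene among 10614 searched; others were named after their values were seen. The values of 1 relative are not reported here. Transcripts of GENCODE M21 served for identity (local alignment) and shared 50-base windows, and RefSeq for gene order and start windows of 300 bases.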

Additional observations from a re-analysis of the deposited data

Results flagged for a closer look

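In 2 of 38 groups of 4 livers checked among the Slc22 and Slc17 genes, 1 liver stood far from the other 3 by Dixon's 95% criterion on the gap to its nearest neighbour. Chance flags about 1 in 20 groups. Slc17a5 measured 53.5 CPM in E4bp4-LKO 179, with the other E4bp4-LKO livers at 43.0 to 43.8 CPM. Slc17a9 measured 6.70 CPM in WT 166, with the other WT livers at 6.08 to 6.19 CPM. Neither gene is one of the 8 transporters described, and neither passed the test between the groups.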

How the results depend on the processing

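No paired analysis was possible because the mouse numbers differ between the groups. The log2 fold changes of Slc22a7, Slc22a28, Slc22a30, Slc17a1, Slc17a2, Slc17a3 and Slc22a23 stayed above 0 under all 16 alternatives, while that of Slc22a5 ran from -0.25 to 0.21. The median of the 8 genes ran from 0.46 to 0.73. The number of the 8 genes called was 3 without WT 164 and 165, 4 without E4bp4-LKO 144 and 5 or 6 under the others. The comparison chose these genes, so nothing is read from that number. Calls over the whole table also fell, to 387 without WT 164 and 165 and 506 without E4bp4-LKO 144. On log2(FPKM + 1), which understates changes of low genes, Slc22a28 gave 1.61 and Slc22a7 1.46.

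Relatives called numbered 2 to 4, against 3. Genes called over the whole table numbered 1437, and 2238 with DESeq2 and 387 without WT 164 and 165; leaving out 1 mouse gave 506 (E4bp4-LKO 144) to 1540, 735 and 757 when E4bp4-LKO 145 or 179 was the one, and 631 and 933 when it was WT 165 or 164. Genes called among the pathway lists outside both families numbered 30 of 99, against 10.9% over all genes tested. Of the 30, 13 were genes known to be higher in male liver and 6 in female liver. These lists were drawn up with earlier results known. The number was 12 without WT 164 and 165, and 17 (E4bp4-LKO 144) to 28 without 1 mouse, with 18 without WT 165. With 4 livers a group, fewer livers also weaken the test; other causes were not tested. On FPKM, 84.5% to 84.8% of called genes were lower.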
